A study of Mus musculus with 4 samples.

Results

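The variable (V) genes of the immunoglobulin heavy chain and of the kappa light chain were examined for binding of CTCF in mouse heart. The members were all genes whose symbol begins with Ighv or Igkv and a digit and which GENCODE types as IG_V_gene. There were 213 of them among 55450 annotated genes, 113 Ighv on chromosome 12 and 100 Igkv on chromosome 6. Each locus was taken from its first to its last V gene, through the constant genes and 200 kb beyond them, and together the loci held 65 of the 54309 peak summits in the conservative list, 41 in Igh and 24 in Igk. On mm10 the Igh locus spanned chr12:113054830-116000461 and the Igk locus chr6:67555497-70926966.

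Chromatin immunoprecipitation with an antibody against CTCF was sequenced from hearts of female B6CASTF1/J mice, hybrids of the C57BL/6J and CAST/EiJ strains, taken as adults at 2 months. Pool G (biological replicate 2) and pool H (biological replicate 1) each combined 2 heart biosamples and gave 2 technical libraries, so 4 libraries from 2 pools underlie the peak lists. All libraries shared strain, sex, age and antibody. There was no treatment, and control libraries were not analysed here. The authors made the conservative list from both pools and kept peaks up to an IDR (irreproducible discovery rate) of 0.05, or 540 on the scale of the deposited column. The signal of a peak is the authors' value without a stated unit, and read depth is unknown. With 1 list from 2 pools no test over samples was possible, so counts are given beside the same counts over the genome, and 95% intervals are exact binomial and cover counting error only. Whole hearts hold several cell types, and the share of cells bound at a site and the strength of binding in each cell cannot be told apart.

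An antibody gene is assembled in B cell precursors, when the RAG recombinase joins one V segment to a D or J segment. The cut falls at a recombination signal sequence that begins with a heptamer directly past the coding end of the V segment. CTCF, a zinc-finger protein that stops the loop-extruding cohesin complex in a manner that depends on the direction of its motif, is known in such cells for its part in folding these loci and in steering which V segments RAG reaches. Cardiac muscle cells do not rearrange these loci, and the share of B cells in the hearts was not measured here.

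CTCF peaks at Ighv genes lay on a short stretch directly past the V segment. This stretch is shown for 9 genes because the position and strand of the core turn on it. It runs along the gene's own strand from the last 6 bases of the annotated V segment, through the heptamer, to 9 bases past the CTCF core, the conserved middle of the CTCF motif. The first 6 genes had a conservative peak and the last 3 had none. Capitals mark the heptamer, CACAGTG or its variant CACAATG, and then the core. All sequences are from GRCm38.p6, on mm10 coordinates.
Ighv5-2 (chr12:113578425-113578509, minus strand): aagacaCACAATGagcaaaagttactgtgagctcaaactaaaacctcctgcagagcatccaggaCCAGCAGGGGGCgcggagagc
Ighv2-3 (chr12:113611103-113611192, minus strand): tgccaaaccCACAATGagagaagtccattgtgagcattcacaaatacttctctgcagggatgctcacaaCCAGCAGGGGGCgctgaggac
Ighv2-6 (chr12:113716589-113716675, minus strand): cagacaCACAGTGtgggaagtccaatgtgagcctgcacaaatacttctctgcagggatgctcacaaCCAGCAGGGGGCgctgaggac
Ighv4-1 (chr12:113948201-113948287, minus strand): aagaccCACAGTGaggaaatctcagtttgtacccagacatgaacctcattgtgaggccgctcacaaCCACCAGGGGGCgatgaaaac
Ighv11-1 (chr12:113981798-113981884, minus strand): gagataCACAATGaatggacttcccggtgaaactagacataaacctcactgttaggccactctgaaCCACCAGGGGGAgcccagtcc
Ighv12-3 (chr12:114366439-114366526, minus strand): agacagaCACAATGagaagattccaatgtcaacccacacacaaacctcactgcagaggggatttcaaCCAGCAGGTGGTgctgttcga
Ighv2-5 (chr12:113685401-113685487, minus strand): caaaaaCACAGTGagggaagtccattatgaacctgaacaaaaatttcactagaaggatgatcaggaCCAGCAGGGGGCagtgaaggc
Ighv3-3 (chr12:114196358-114196444, minus strand): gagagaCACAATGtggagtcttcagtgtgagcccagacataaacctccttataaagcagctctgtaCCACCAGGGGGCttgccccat
Ighv10-1 (chr12:114478925-114479010, minus strand): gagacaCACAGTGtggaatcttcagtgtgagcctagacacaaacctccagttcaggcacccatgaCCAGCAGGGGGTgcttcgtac

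Of the 113 Ighv genes, 15 had a conservative summit within 1 kb, which is 13.3% (interval 7.62 to 20.9). The same held for 6.43% of the 18188 other genes of at most 1 kb. All 15 Ighv genes also had a summit within 100 bp, where the other short genes came to 2.09%. None of the 100 Igkv genes had a summit within 1 kb, which allows a share of up to 3.62%. Within 5 kb 3 of them had one, against 20.5% of the other short genes. The median distance from a V gene to the nearest summit was 148 kb in Ighv and 185 kb in Igkv, against 23.7 kb for the other short genes. Most V genes of both loci were thus far from any peak, while the bound Ighv genes had theirs at the V segment itself.

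The 15 genes belonged to 6 of the 16 Ighv families, the groups of V genes related by sequence. They were Ighv5-2, Ighv5-6, Ighv5-9-1, Ighv5-16 and Ighv5-17 of 10 Ighv5 genes, Ighv2-2, Ighv2-3, Ighv2-6, Ighv2-6-8 and Ighv2-9 of 9 Ighv2 genes, both Ighv11 genes (Ighv11-1 and Ighv11-2), the single Ighv4-1 and Ighv12-3, and Ighv7-2 of 4 Ighv7 genes. The largest family, Ighv1, had 0 of 53 genes with a summit within 1 kb, and Ighv8 had 0 of 9.

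From Ighv5-2, the V gene nearest the constant genes, to the far end of the locus there were 17 summits. Of these, 15 lay 47 to 119 bp downstream of a V gene along its own strand, with a median of 63 bp. One more lay inside Ighv5-6, which had a second summit 119 bp downstream. The remaining summit lay 78 bp from the V pseudogene Ighv4-2 and 18168 bp from the nearest V gene, Ighv14-2. Every summit of this stretch was thus at a V gene or V pseudogene.

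Ighv11-1 had the strongest peak among the V genes, with a signal of 524 in the conservative list and of 278 in pool G and 249 in pool H. Ighv11-2 followed with 368 (193 in pool G and 173 in pool H), and Ighv2-3 with 354 (192 and 160). These values of the pools are those the ranked list gives for the matched pair of calls. Ighv11-1, Ighv11-2, Ighv2-3 and the pseudogene Ighv4-2 (301) were the only summits of the stretch at or above 286, the median of all conservative peaks. Ighv5-17 and Ighv4-1 both reached 233, with pool values of 127 and 105 and of 124 and 108.

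The other bound genes had weaker peaks. Ighv2-6 had a signal of 208, Ighv5-6 of 165, Ighv5-2 of 150 and Ighv2-6-8 of 148. Ighv2-9, Ighv5-9-1, Ighv12-3 and Ighv2-2 lay between 111 and 123. Ighv7-2 (85.2) and Ighv5-16 (66.4) were the lowest, and Ighv5-16 also had a scaled IDR of only 617 where the other 14 genes had a summit at 1000. In the matched calls the pool G value of the 15 genes was 1.01 to 1.48 times the pool H value, with a median of 1.20.

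**Figure D1:**
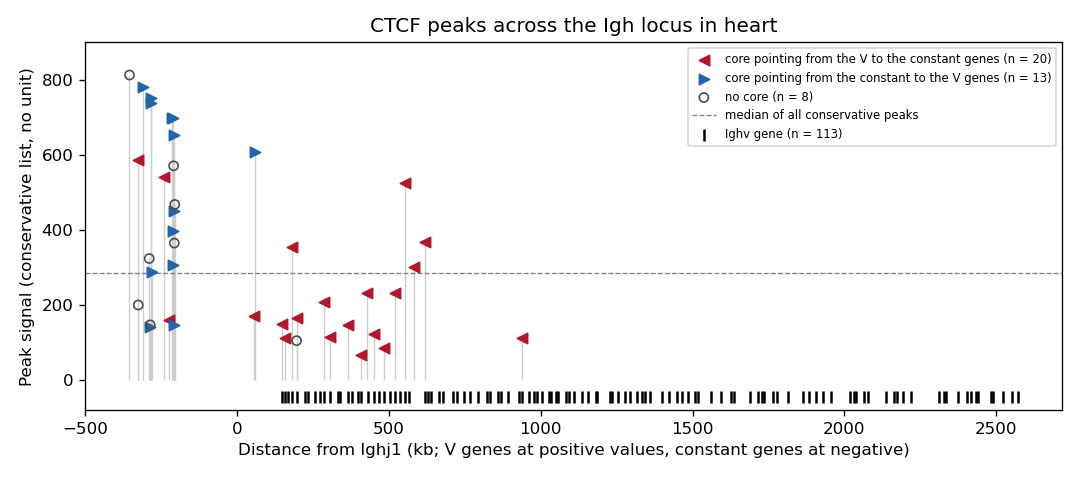
Signal of each conservative CTCF peak (vertical axis, no unit) against distance from Ighj1, the first J gene (horizontal axis, kb), in the Igh locus. Triangles give the direction of the core, open circles are peaks without a core, black ticks are the 113 Ighv genes, and the dashed line is the median of all peaks (286). Among the V genes all cores point towards the constant genes, and no peak lies farther from Ighj1 than the one at Ighv12-3.

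The core, at up to 1 mismatch, lay within 100 bp of 16 of these 17 summits. The share over all conservative summits was 66.0%. All 16 cores were on the minus strand, which is the strand of all 113 Ighv genes, so that each pointed from its V gene towards the D, J and constant genes. Over all conservative summits 50.2% of cores were on the minus strand. The median distance from summit to core was 4 bp.

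Searching the sequence in place of the peaks gave more sites. A core began within 100 bp past the V segment in 34 of 113 Ighv genes (30.1%, interval 21.8 to 39.4), always on the strand of the gene, and in 1.65% of the other short genes. None of the 100 Igkv genes had one. The gap between V segment and core was nearly constant: it was 60 bp in 16 genes, 58 bp in 9 and 55 to 63 bp in 31 of the 34. The families that carried the core were Ighv5 (9 of 10 genes), Ighv2 (8 of 9), Ighv3 (5 of 6), Ighv7 (3 of 4), Ighv10 and Ighv11 (2 of 2 each) and single genes of Ighv4, Ighv6, Ighv12, Ighv13 and Ighv16. Ighv1 had 0 of 53, Ighv8 0 of 9, Ighv9 0 of 4 and Ighv14 0 of 4.

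The heptamer CACAGTG stood within 60 bp past the V segment in 72.6% of Ighv and 84.0% of Igkv genes, on the strand of the gene, against 4.2% of the other short genes on the same chromosomes. Among the 34 Ighv genes with a downstream core, 21 had this heptamer, and 10 more had only the variant CACAATG, a word that was looked for after the sequences had been seen. In 19 of those 21 the gap between heptamer and core was 51 to 53 bp. In the printed sequences the heptamer and the core accordingly stand on the same strand at a nearly fixed spacing.

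All 15 Ighv genes with a summit within 1 kb were among the 34 with a downstream core, and none of the 79 without one had such a summit. The core alone did not separate bound from unbound genes. Of the 18 genes with an exact core, 11 had a conservative summit, 4 had only a candidate peak under the threshold and 3 (Ighv5-9, Ighv2-5 and Ighv3-3) had no candidate. Of the 16 with 1 mismatch, 4 were bound, 3 had a candidate and 9 had none. The 2 strongest genes, Ighv11-1 and Ighv11-2, were both among those with 1 mismatch.

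Candidates were not confined to genes with the core: of the 79 Ighv genes without a downstream core, 8 had a candidate alone within 1 kb. The 7 genes with a downstream core and a candidate alone were Ighv5-4, Ighv5-12, Ighv2-9-1, Ighv5-15, Ighv7-1, Ighv7-4 and Ighv6-3. Their signals ran from 27.9 (Ighv7-1) to 77.1 (Ighv5-12) and their scaled IDR from 67 to 487. Ighv5-12 had 41.4 in pool G and 35.6 in pool H, values above those of Ighv5-16 (37.5 and 26.6), which passed.

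V genes are copies of each other, and a read that fits several places may not be counted. The share of 36-base words that occur once in the genome, over 200 bp around the core, had a median of 84.9% in the 15 bound genes, 94.6% in the 7 with a candidate and 86.7% in the 12 with none. In each of the 3 groups it ran from 16.3 to 100%. The lowest value among the bound genes was at Ighv5-6. Over whole V genes with 500 bp on both sides, the median was 76.3% for Ighv genes with a summit within 1 kb, 72.7% for those without and 68.3% for Igkv genes. The part of read placement in these counts was not tested, and the CAST/EiJ copy of the loci can differ from the reference used here.

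**Figure D2:**
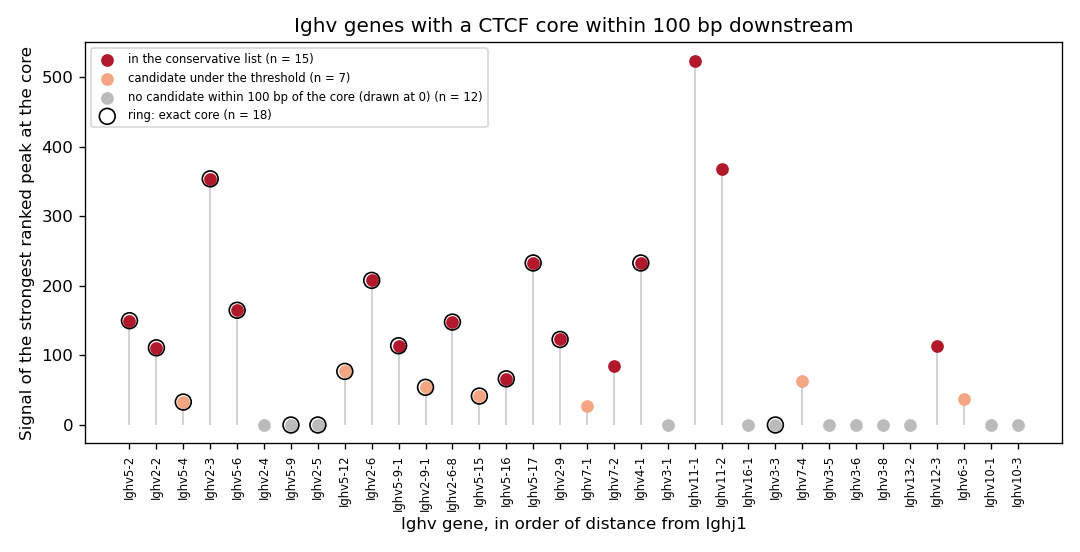
Signal of the strongest ranked peak within 100 bp of the core (vertical axis, no unit) for the 34 Ighv genes with a core within 100 bp downstream, in order of distance from Ighj1 (horizontal axis). Dark points are in the conservative list (15), pale points are candidates under the threshold (7), grey points have no candidate and are drawn at 0 (12), and rings mark exact cores (18). The highest points, Ighv11-1 and Ighv11-2, carry no ring.

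The bound genes were in the part of the locus nearest the constant genes. Summits in the V genes were counted in steps of 500 kb from Ighv5-2. The first step held 14 bound genes of 29, the second only Ighv12-3 of 26, and the remaining 3 steps none of 58. The farthest gene with a downstream core was Ighv10-3, 1093.6 kb from Ighj1 and in the second step. The remaining 3 steps thus held no V gene with such a core. No summit lay in the last 1.63 Mb, up to Ighv1-85 at the far end, a stretch with 70 V genes. Words occurring once made up 69.4 and 78.5% of the first 2 steps and 67.7, 49.8 and 52.6% of the others.

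Copies of the core at any distance from a V gene were present throughout the stretch. Across all chromosomes 7.19% of 562101 copies at up to 1 mismatch, and 23.5% of 76898 exact copies, lay within 100 bp of a conservative summit. Among the Ighv genes these were 15 of 427 (3.51%, interval 1.98 to 5.73) and 11 of 74 (14.9%, interval 7.66 to 25.0). Among the Igkv genes they were 7 of 509 (1.38%, interval 0.555 to 2.81) and 0 of 23, which allows up to 14.8%. The exact copies among the Ighv genes were on the minus strand in 69 of 74 cases, and the last 3 steps, with no summit, held 8, 24 and 16 of them.

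One exact word, CCAGCAGGGGGC, made up 38 of the copies from Ighv5-2 to the far end, and all 38 were on the minus strand. It was singled out after its values had been seen. Of its 15 copies within 100 bp downstream of a V gene or pseudogene, 9 lay at a conservative summit and 13 at a candidate or better. Of the 23 other copies, none lay at a conservative summit and 12 were at a candidate. The 15 downstream copies lay 148.6 to 449.2 kb from Ighj1 and the 23 others 1157.6 to 2374.1 kb. Place beside a V gene and position in the locus therefore cannot be told apart for this word. Over all chromosomes the word had 1003 copies, of which 73.3% lay at a conservative summit. Candidates at those copies were not counted. The candidate counts here and in the next paragraph thus have no background and cannot be read as high or low.

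The 23 others included 14 copies 739 to 1277 bp upstream of V genes or pseudogenes, where the bases around the word differed from those past the V segments. The sites upstream of Ighv1-50 and Ighv1-53 are given with 9 bases on both sides, the word in capitals, to set beside the first 3 printed stretches.
upstream of Ighv1-50 (chr12:115121465-115121494, minus strand): agttctggaCCAGCAGGGGGCacaatgggg
upstream of Ighv1-53 (chr12:115159635-115159664, minus strand): agttctggaCCAGCAGGGGGCacaatgggg
The commonest bases around the word in these 14 copies matched those of the 15 downstream copies at 8 of the 18 flanking positions. The words of 36 bases around it occurred once in a median of 50.6% of positions for the upstream copies and 78.3% for the downstream copies. In 6 of the 23 copies elsewhere the share was at least 90%. None of these 6 lay at a conservative summit, but all 6 lay at a candidate, with signals of 21.2 to 71.4. Of all 23 copies elsewhere, 12 were at a candidate. In the 15 downstream copies 5 reached that share. Of these 5, 3 were bound, and those at Ighv2-9-1 and Ighv5-15 had a candidate alone.

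**Figure D3:**
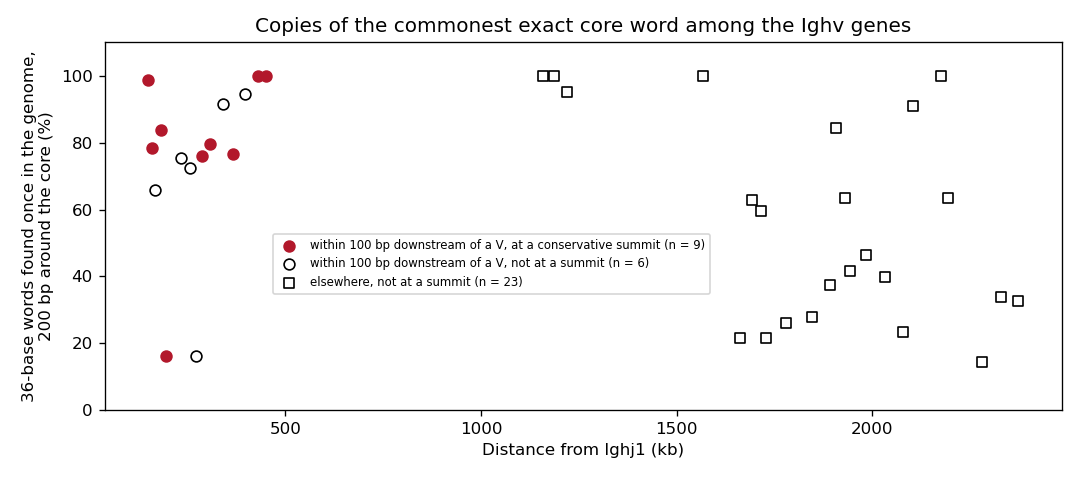
Share of 36-base words found once in the genome within 200 bp around each of the 38 copies of the commonest exact core word (vertical axis, %) against distance from Ighj1 (horizontal axis, kb). Circles are copies within 100 bp downstream of a V gene or pseudogene (filled: at a conservative summit), and squares are copies elsewhere. All circles, filled (9) or open, lie at 148.6 to 449.2 kb and all squares at 1157.6 to 2374.1 kb, so the sets do not overlap in position. No square is filled, including those at 100%. Open symbols include copies at a candidate under the threshold.

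The interval between the V genes and the first constant gene, which holds the D and J genes, had 3 summits in Igh, one of them that of Ighv5-2. The other 2 were 2.6 kb apart near the D genes, in the stretch known as intergenic control region 1, which in B cell precursors keeps RAG from reaching the V genes too early. The summit 3079 bp from Ighd1-1 had a signal of 172 (pool G list 97, pool H list 71.4) and an exact core on the minus strand. The summit 1626 bp from Adam6b, a gene needed for male fertility, had a signal of 609 (317 and 294) and a core on the plus strand. The cores pointed away from each other, one towards the constant genes and the other towards the V genes, and are printed with the core in capitals.
nearer to Ighd1-1 (chr12:113485261-113485290, minus strand): tcttcctctCCACAAGAGGGCagaattcgg
nearer to Adam6b (chr12:113487879-113487908, plus strand): tgctcatagCCACAAGGGGGAagcagagac

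The corresponding interval in Igk also held 3 summits, 5304, 9129 and 10223 bp past Igkv3-1, the V gene nearest the constant gene. The interval contains the elements named Cer and Sis, which are known to limit recombination with the nearest Igkv genes. The signals were 341 (pool G list 184, pool H list 166), 267 (149 and 118) and 632 (339 and 296). The first and the last had a core with 1 mismatch, and these again pointed apart, the first towards the V genes and the last towards the J and constant genes. The middle summit had no core.
first, nearest Igkv3-1 (chr6:70709461-70709490, minus strand): aatgctgtaTCAGCAGATGGCagtgttgta
last, nearest the J genes (chr6:70714393-70714422, plus strand): tcaatgtggCCAGCAGAGGCCcctagtcag

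No conservative summit lay within the constant genes of either locus. This part is 0.168 Mb long in Igh but only 0.000532 Mb in Igk, so the absence in Igk says little. The 200 kb past the constant genes were dense in peaks, with 110 summits per Mb in Igh and 65.0 in Igk. The V genes had 6.61 and 2.54 per Mb, and all chromosomes 20.5 per Mb. The median signal past the constant genes was 459 in Igh and 602 in Igk, against 156 among the Ighv and 150 among the Igkv genes. In the Igh stretch 15 of 22 summits had a core, 12 of them on the plus strand, pointing towards the V genes.

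A group of 10 summits within 8.28 kb began 30.4 kb past the Igh constant genes, where CTCF sites are known to flank the 3′ regulatory region, the enhancer cluster of the heavy chain. Their signals ran from 147 to 699, and 7 had a core, all on the plus strand, facing the cores at the V genes. The strongest of the group and one of those with an exact core are printed with the core in capitals.
strongest of the group (chr12:113218077-113218106, plus strand): ctctactgaCCACACGGTGGCagcagagcg
exact core (chr12:113221399-113221428, plus strand): tgcatctgtCCACCAGGGGGCacctgagca

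The 5 strongest summits past the Igh constant genes had signals of 813 in Tex22, 782 in Mta1, a component of a chromatin-remodelling complex, 751 in Crip2, 739 at Crip1 and 699 in the group just described. Past the Igk constant gene they were 813, 747 and 690, all between 5 and 20 kb from Rpia, 782 in Rpia, an enzyme of the pentose phosphate pathway, and 724 in Eif2ak3, the stress kinase PERK. All of these signals were above the highest at a V gene, 524 at Ighv11-1.

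The Igkv stretch differed in layout from the Ighv stretch. Its 8 summits lay 2.96 to 25.8 kb from the nearest V gene with a median of 8.60 kb, 6 upstream and 2 downstream of it. One of them, nearest Igkv1-132, lay 447 bp from a V pseudogene, Gm43284, and the peak near Igkv10-95 lay 2574 bp from the pseudogene Igkv2-95-1. A core was found at 7, always with 1 mismatch, 6 on the plus strand and 1 on the minus strand. The plus strand points towards the J and constant genes in this locus. Igkv genes lie on both strands, 38 on plus and 62 on minus.

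The strongest Igkv peak was 11791 bp from Igkv10-95, with a signal of 350 (pool G list 195, pool H list 154). Next were the peaks nearest Igkv14-130 (260, with 136 and 121), Igkv1-133 (191), Igkv1-132 and Igkv17-127 (150 each). The peak nearest Igkv14-130 had the single minus-strand core. Of the 8 peaks, 6 lay in the third of the Igkv stretch farthest from the constant gene, near Igkv1-135 to Igkv17-121. The other 2 were the peak near Igkv10-95 and one at 575.4 kb from Igkj1, nearest Igkv8-28, with a signal of 109 and no core. Between these 2 there were 1.48 Mb with 50 V genes and no summit. Igkv2-137, the V gene farthest from the J genes, was 5.78 kb from its nearest summit.

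**Figure D4:**
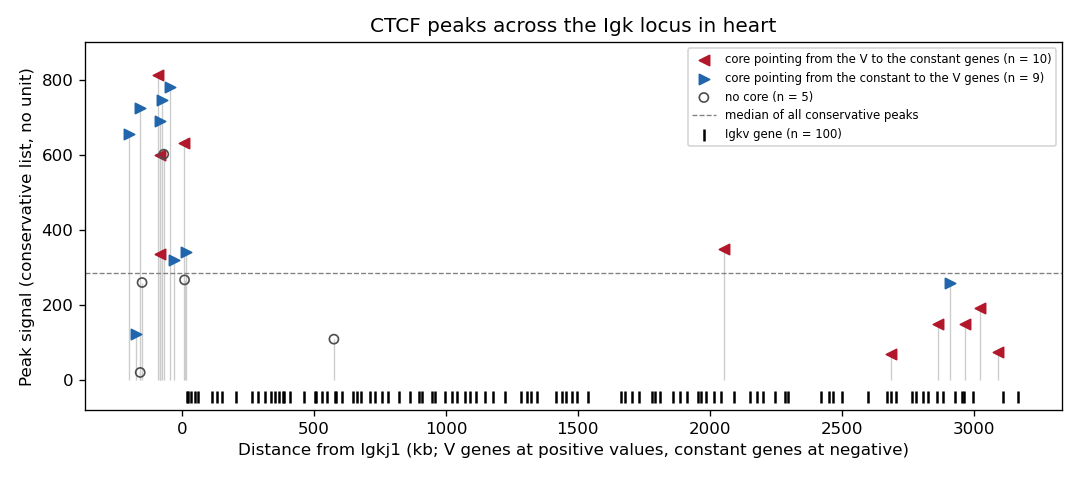
Signal of each conservative CTCF peak (vertical axis, no unit) against distance from Igkj1 (horizontal axis, kb) in the Igk locus, with the direction of the core as triangles, peaks without a core as open circles and the 100 Igkv genes as ticks. The V genes hold 8 peaks, 6 of them at the end far from Igkj1, and most strong peaks lie beyond the constant gene at negative distances.

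Peaks under the threshold added few sites at Igkv genes. In the ranked list matching the conservative one, 32.7% of 166014 peaks passed the threshold, 16 of 53 (30.2%) in the Ighv segment and 8 of 35 (22.9%) in the Igkv segment. With candidates included, 30 of 113 Ighv genes had a peak within 1 kb, of which 15 had a candidate alone, and 1 of 100 Igkv genes had one. Candidates near the other short genes were not counted, so these counts have no background and cannot be read as high or low.

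The lists of the single pools gave most of the same peaks. From Ighv5-2 to the far end 12 of 17 summits had a summit within 100 bp in both pool lists, and the pool G signal was 1.01 to 1.48 times the pool H signal (median 1.17). For the Igkv segment 6 of 8 did (median ratio 1.22), and for the other summits of both loci 35 of 40 (median 1.11). Over all conservative summits the share was 83.6% and the median ratio 1.22.

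**Figure D5:**
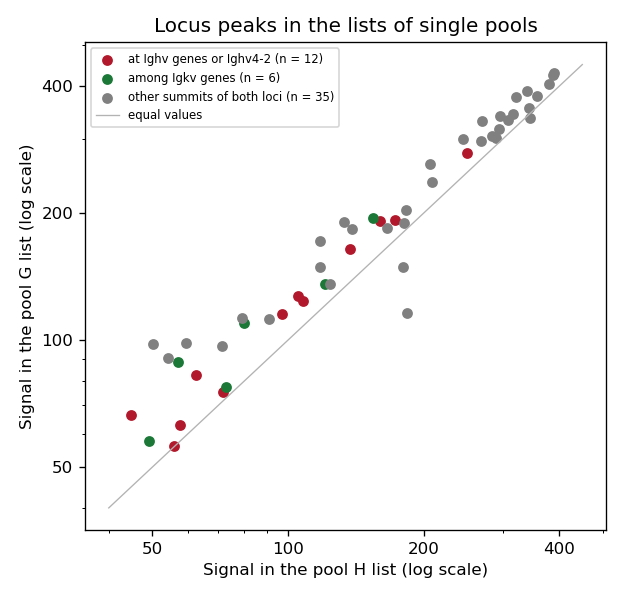
Signal of locus summits in the list of pool G against that of pool H (both axes logarithmic, no unit) for summits found in both within 100 bp, with a line at equal values. The 12 at Ighv genes or at the pseudogene Ighv4-2 and the 6 among Igkv genes all lie above the line, in the same band as most of the 35 others.

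Of 33 genes of V(D)J recombination and B cell identity, 10 had a conservative summit within 1 kb of a transcription start, against 34.5% of 21951 protein-coding genes. The strongest were at Bach2, a transcription factor of B cells (733), Lig4, the ligase that seals the joined ends (717), and Cd22, a B cell surface receptor (567). Rag1, Rag2 and Dntt had none. Such peaks do not measure expression, and 1 of 6 B cell markers and 2 of 6 cardiomyocyte markers (Myl2 and Ryr2) had one, so they do not check the tissue label.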

How the data were processed

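CTCF ChIP-seq peak lists from 4 heart libraries of 2 pools were used, on mm10 per the labels. The authors deposited 8 lists. Per the readme texts deposited with the samples, these are ranked and thresholded lists of each pool and of both pools. The aligner and the caller were not given in the sources used here. The signal and the scaled IDR are scores deposited by the authors, and summits are start plus summit offset. Signals were compared within a list, and those of the pools were set side by side as ratios for description, since the lists may differ in scale. Depth is unknown.

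From these, distances to V segments (GENCODE M21), the best CTCF core within 100 bp of a summit (fewest mismatches, at most 1, then nearest) and 36-base words in GRCm38.p6 were computed with pandas 2.3.3, numpy 2.4.6 and scipy 1.17.1 under Python 3.11.15 and drawn with matplotlib 3.10.9. Scripts were tested on simulated data. Of the V genes, those with a summit within 100 bp or nearest the 5 strongest peaks of a segment, and the end genes, were named. Members and lists were chosen with earlier results of these data known. The downstream cores, core words and CACAATG were added after seeing values. Alternatives were the other lists, a scaled IDR of 830, other distances and windows, an exact core and no extension.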

Additional observations from a re-analysis of the deposited data

How the results depend on the processing

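Of 63 values under alternatives, 51 stayed close to those reported and 12 moved. Without the 200 kb past the constant genes, Igh had 19 summits and Igk 11. With an exact core, the share of summits with a core was 41.5% in Igh and 33.3% in Igk, and the strand share of Igkv could not be given, as no exact core was left. Within 5 kb, 3 Igkv genes had a summit. The median signal of Igh peaks was 233 in the second list of both pools. With 1 pool list in turn, medians were 126 to 180 in Igh and 166 to 183 in Igk, on those lists' own scales. The commonest core word outside the downstream sites, an alternative chosen after seeing the data, had 1 bound copy in the second list and 0 to 1 in the pool lists. Single pool lists gave 40 summits in Igh and 19 to 21 in Igk, 13 Ighv and 0 Igkv genes with a summit within 1 kb, 13 of those with a downstream core, core shares of 77.5% (Igh) and 76.2 to 78.9% (Igk), and minus-strand shares of 100% (Ighv) and 20.0% (Igkv). No paired analysis was possible because no result comes from a test over samples.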

Other observations

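V pseudogenes with an Ighv or Igkv symbol and the V genes of T cell receptors give values beside those of the members. A conservative summit lay within 1 kb of 1 of 70 Ighv pseudogenes (Ighv4-2), of 0 of 60 Igkv pseudogenes, and of 18 of 144 T cell receptor V genes (12.5%). A summit in the Igkv segment also lay 447 bp from Gm43284, a V pseudogene without such a symbol. Within 100 bp a summit lay at 3 of the T cell receptor V genes, against 15 of 113 Ighv genes. A core within 100 bp downstream of the segment was found at 9 of 70 Ighv pseudogenes, all on the strand of the pseudogene, and at 1 of 144 T cell receptor V genes. None of the 18 T cell receptor V genes with a summit within 1 kb had a downstream core, whereas all 15 such Ighv genes did.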
